A study of Mus musculus with 8 samples.

Results

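The NRF2 pathway was examined through 10 genes of the antioxidant response, Nfe2l2, Keap1, Nqo1, Gclc, Gclm, Txnrd1, Srxn1, Slc7a11, Prdx1 and Gsr, chosen by symbol among the 55487 genes counted. By the labels and methods, the RNA came from the stromal vascular fraction of subcutaneous tumors of MC38, a mouse colorectal cancer line tagged with GFP, after the GFP+ tumor cells had been sorted out, and the markers given below go against that label. There were 4 libraries labelled as from Bmal1+/+ hosts (called WT libraries here) and 4 labelled as from Bmal1-/- hosts (KO, of which replicate 4 is titled KO6), without treatment, and the ages of the mice are not given in the sources used here. By the paper, the Bmal1-/- mice were conventional knockouts bred from heterozygous founders. The deletion was of the whole host and not of the implanted tumor cells, which every host carried. All 10 genes were matched by symbol, and 9 had enough counts to be tested.

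NRF2, the product of Nfe2l2, is a basic leucine zipper factor that binds antioxidant response elements as a dimer with a small MAF protein. KEAP1 holds it in the cytosol and hands it to a CUL3 ubiquitin ligase, and electrophiles or peroxides that modify KEAP1 cysteines let NRF2 reach the nucleus. Its targets make glutathione, reduce thioredoxin and peroxiredoxins, detoxify quinones and supply NADPH. The liver uses the pathway against reactive drug metabolites, and macrophages and tumor cells use it as well.

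The antioxidant response element has the core TGACNNNGC, which was searched on both strands of the RefSeq promoter windows (GRCm38.p6, 250 bases before to 50 bases after the annotated start, written 5′ to 3′ on the strand of the gene). Windows were given for 8 of the 10 genes, with 3 for Txnrd1, and Gclc and Gsr had none. The core was found in a window of 5 of these 8 genes, and 14.0% of all 27025 genes with a window hold it. The matches that lie upstream of the start are printed below with the core in capitals, because they are the letters that NRF2 is known to read, and the core of Gclm, Prdx1 and Txnrd1 is on the other strand.
Nfe2l2, bases 11 to 19 of its window: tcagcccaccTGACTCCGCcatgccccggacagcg
Gclm, bases 117 to 125: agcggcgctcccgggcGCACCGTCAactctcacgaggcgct
Prdx1, bases 118 to 126: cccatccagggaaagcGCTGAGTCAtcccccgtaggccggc
Txnrd1, bases 159 to 167 of 1 of its windows: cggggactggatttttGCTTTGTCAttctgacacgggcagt
These stretches lie at chr2:75704879-75704913 (minus strand), chr3:122245407-122245447, chr4:116685450-116685490 and chr10:82859098-82859138 (all plus strand). The fifth match, in Srxn1, lay past the start, at bases 279 to 287. Nqo1 had the largest fold change of the 9 genes tested, and the first 240 bases of its window (chr8:107403216-107403455, minus strand) are shown for that reason.
Nqo1: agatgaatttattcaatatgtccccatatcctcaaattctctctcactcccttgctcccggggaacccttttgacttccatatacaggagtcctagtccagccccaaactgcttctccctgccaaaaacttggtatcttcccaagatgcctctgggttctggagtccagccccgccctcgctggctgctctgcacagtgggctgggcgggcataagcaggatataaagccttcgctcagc
No core was found in the window of Nqo1, Keap1 or Slc7a11, which says only that these letters are not in these 300 bases. The E-box CACGTG, the site of BMAL1 with CLOCK, was found in no window of the 8 genes and in 8.1% of all genes with a window. A match is a description of letters and not a binding site.

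Library totals were between 14054825 and 18449143 counts. Bmal1 (listed as Arntl), the targeted gene, lay from 0.960 to 2.71 CPM (counts scaled to library size with edgeR's TMM factors) in WT libraries. In the others it lay from 30.1 to 35.0 CPM. By gene counts, this order goes against the labels of both groups, so every direction below is between labels. Counts per gene do not show whether the transcript was intact, and the cause was not tested. Xist lay from 844 to 1095 CPM in WT libraries and from 0.142 to 0.749 CPM in the libraries labelled KO, and 4 Y chromosome genes were counted only in the latter, so sex and genotype cannot be told apart in any comparison here. The labelled cell type was checked against its markers. The summed level of 13 hepatocyte genes was from 118416 to 130553 CPM in WT libraries and from 84812 to 103176 CPM in the others, and 54098 to 59780 against 67523 to 90432 CPM without Alb, whereas 10 fibroblast genes had sums of 105 to 221 CPM over the 8 libraries. Both upper hepatocyte sums of the KO label were those of its replicate 4. Trf had 20284 CPM in that library, against 5346 to 6390 CPM in the others of its label. Fap had at most 7 counts and the intestinal factor Cdx2 had 0 in every library. Hepatocyte transcripts thus far exceeded those of fibroblasts, against the label of a tumor stromal fraction. Replicate 4 of the KO label stood apart from the other 3 of its label, with a chi-square per degree of freedom of 129 to 150 in pairs with them, against at most 40.0 among them and 25.1 to 37.4 among WT libraries. In such bulk RNA, fewer cells of a type and less RNA per cell cannot be told apart.

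Of the 9 genes tested, Nqo1 and Nfe2l2 were lower in the libraries labelled KO and none was higher with an adjusted p below 0.05 (edgeR's quasi-likelihood test, Benjamini-Hochberg adjustment over all 14353 genes tested). The 2 calls are 22.2% of the 9, whereas 31.1% of all genes tested were called, 16.2% lower and 14.9% higher. The groups did not overlap for 3 of the 9, with Nqo1 and Nfe2l2 lower and Gsr higher. Of all genes, 16.8% did not overlap with the KO label lower and 16.7% with it higher, 33.4% in all. By the study's own rule (a change of more than 2-fold and a raw p under 0.05) only Nqo1 was called, lower, whereas 8.71% of all genes were lower and 5.41% higher by it. The median log2 fold change was 0.00 over the 9 genes (-0.0048) and 0.02 over all genes tested. The share called among these 9 genes was no larger than that over all genes, and the fold change of Nqo1 was the largest of the 9. Without replicate 4 of the KO label, 3 of the 9 were lower (Nqo1, Nfe2l2 and Txnrd1) and 0 higher by the adjusted p. Of all 14775 genes tested in that fit, 2502 were lower and 2212 higher.

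**Figure D1:**
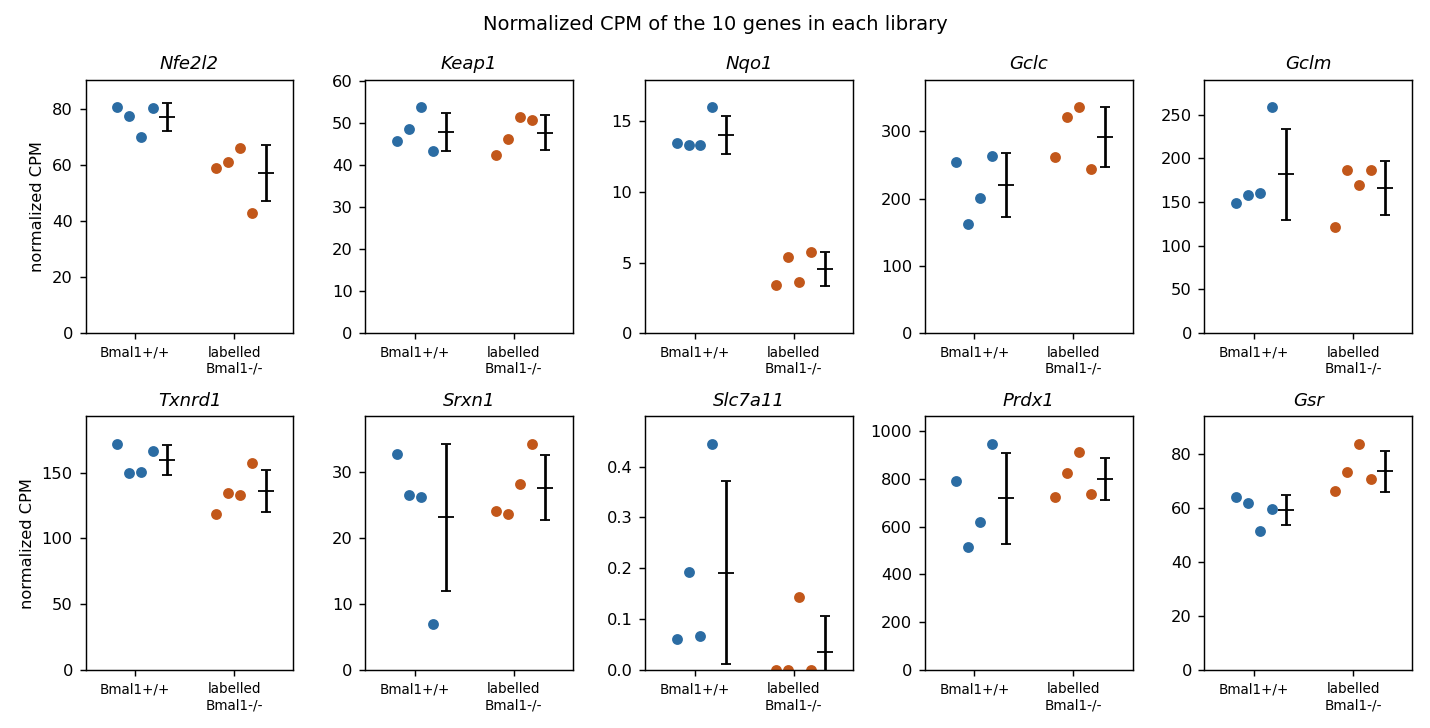
Normalized CPM (y axis, each from 0) of the 10 genes in the 4 WT libraries and the 4 libraries labelled KO, with 1 point per library and the mean ± SD beside them. The groups separate for Nqo1, Nfe2l2 and Gsr, and 1 WT library is low for Srxn1 (6.96 CPM) and high for Gclm (259 CPM).

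Nqo1 encodes NAD(P)H quinone dehydrogenase, which reduces quinones by 2 electrons and is the usual reporter of NRF2 activity. The gene (ENSMUSG00000003849) spans 107388225 to 107403206 of chromosome 8 (GRCm38, as for all positions) and overlaps no other annotated gene. Nqo1 had 13.5, 13.3, 13.3 and 16.0 CPM in replicates 1 to 4 of WT and 3.43, 5.40, 3.63 and 5.77 CPM in replicates 1 to 4 of the libraries labelled KO. Every library of the latter label was below every WT library, and replicates 2 and 4 were above 1 and 3 within it. The mean was 14.0 ± 1.34 CPM (SD, n = 4) against 4.56 ± 1.20 CPM (SD, n = 4), 3.08-fold lower, with a log2 fold change of -1.62 (standard error 0.19, 95% interval -2.05 to -1.20, adjusted p = 2.4e-04). Of all genes tested, 3.59% had a lower log2 fold change. The raw counts behind these values were at least 198 in WT libraries and between 51 and 85 in the others. Nqo1 was called lower in each of the 16 alternative fits, with log2 fold changes between -1.75, the value without replicate 4 of the KO label, and -1.50.

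Nfe2l2, which encodes NRF2 itself, was lower by a smaller amount. The gene (ENSMUSG00000015839) lies on chromosome 2 from 75675513 to 75704641. Nfe2l2 had 80.8, 77.7, 70.1 and 80.5 CPM in replicates 1 to 4 of WT and 59.0, 61.1, 66.0 and 42.7 CPM in replicates 1 to 4 of the libraries labelled KO. The groups did not overlap, although the gap from 66.0 to 70.1 CPM was small, and replicate 4 was the lowest library. The log2 fold change was -0.43 (standard error 0.14, 95% interval -0.74 to -0.13, adjusted p = 0.035), or 1.35-fold lower. The call was lost in 9 of the 16 alternative fits, all of which kept the direction. It was lost without replicate 1, 2 or 4 of WT (adjusted p of 0.082, 0.071 and 0.074) and without replicate 1 or 2 of the libraries labelled KO (adjusted p of 0.064 and 0.059). Without replicate 4 of the libraries labelled KO, the log2 fold change was -0.31 and the call was kept (adjusted p = 0.039).

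Keap1, the inhibitor, did not pass the test. Keap1 (ENSMUSG00000003308, chromosome 9, 21229730 to 21239361) lay from 43.3 to 53.7 CPM in WT libraries and from 42.3 to 51.4 CPM in the libraries labelled KO. Its 95% interval of the log2 fold change was -0.24 to 0.23 (adjusted p = 0.98). An antisense gene overlaps it with 19 to 33 counts, against at least 667 for Keap1. Per length, the ratio of Nfe2l2 to Keap1 in the authors' FPKM (fragments per kilobase of exon, scaled to library size) was between 3.08 and 4.40 in WT libraries and between 1.99 and 3.30 in the libraries labelled KO, with an overlap.

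Glutathione is built from cysteine, glutamate and glycine, and the first step is catalysed by glutamate-cysteine ligase, a dimer of the catalytic subunit Gclc and the modifier subunit Gclm. Gclc (ENSMUSG00000032350, chromosome 9, 77754535 to 77794485) had 255, 162, 201 and 263 CPM in replicates 1 to 4 of WT and 262, 321, 336 and 244 CPM in the libraries labelled KO. The groups overlapped, and the log2 fold change of 0.40 (95% interval 0.0052 to 0.80) had an adjusted p of 0.11. Gclm (ENSMUSG00000028124, chromosome 3, 122245557 to 122270732) had 150, 158, 161 and 259 CPM in replicates 1 to 4 of WT and 122, 186, 170 and 187 CPM in the libraries labelled KO. Replicate 4 of WT stood above all other libraries. Its log2 fold change was -0.13 (95% interval -0.59 to 0.33, adjusted p = 0.66), and without that library it was 0.08 (adjusted p = 0.74). An annotated transcript on the other strand of Gclm had 159 to 259 counts, against at least 1951 for Gclm, and whether counting used the strand is not stated. Per length, the catalytic subunit was the more abundant of the pair in every library, with an FPKM ratio of Gclc to Gclm between 2.13 and 3.57 in WT libraries and between 2.74 and 4.51 in the libraries labelled KO.

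Slc7a11, which encodes the cystine importer xCT, was at the detection floor. Slc7a11 (ENSMUSG00000027737, chromosome 3, 49892526 to 50443614) had 1, 3, 1 and 8 counts in replicates 1 to 4 of WT and 0, 0, 2 and 0 counts in the libraries labelled KO. A count of 3, the floor used here, corresponds to 0.163 to 0.213 CPM computed on library totals, for counting error only. Replicate 4 of WT was the only library above it, the gene did not pass the expression filter, and no fold change is given. Slc3a2, the heavy chain that xCT pairs with and that other amino acid transporters share, had 38.5 ± 4.04 CPM (SD, n = 4) in WT libraries against 28.0 ± 2.81 CPM (SD, n = 4) in libraries labelled KO, with an adjusted p of 0.013.

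Gsr encodes glutathione reductase, which returns oxidized glutathione to its reduced form with NADPH. Gsr (ENSMUSG00000031584, chromosome 8, 33652523 to 33698163) had 64.0, 61.8, 51.3 and 59.6 CPM in replicates 1 to 4 of WT and 66.1, 73.1, 83.8 and 70.8 CPM in the libraries labelled KO. The groups did not overlap, with a gap from 64.0 to 66.1 CPM. The log2 fold change of 0.31 (standard error 0.11, 95% interval 0.07 to 0.56) had an adjusted p of 0.056. The adjusted p was 0.040 with library size only, 0.039 by limma on log2 FPKM and 0.0499 once replicate 1 of the libraries labelled KO was left out, so the call depended on the fit.

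Of the 10 genes, the 3 that serve thioredoxin and the peroxiredoxins, Txnrd1, Prdx1 and Srxn1, did not pass the test. Txnrd1, the cytosolic thioredoxin reductase (ENSMUSG00000020250, chromosome 10, 82833951 to 82897712), lay from 149 to 172 CPM in WT libraries and from 119 to 158 CPM in the libraries labelled KO. Its log2 fold change was -0.23 (95% interval -0.48 to 0.02, adjusted p = 0.15), and without replicate 4 of the libraries labelled KO, the highest of its label, it was -0.31 (adjusted p = 0.047). Prdx1, the most abundant of the genes, encodes a cytosolic peroxiredoxin that removes peroxides. Prdx1 (ENSMUSG00000028691, chromosome 4, 116685544 to 116700822) ranged from 517 to 949 CPM in WT libraries and from 724 to 913 CPM in the others, with a log2 fold change of 0.15 (95% interval -0.28 to 0.58, adjusted p = 0.58).

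Srxn1 encodes sulfiredoxin, which repairs overoxidized peroxiredoxins, and varied more among the WT libraries than any other gene of the 9. Srxn1 (ENSMUSG00000032802, chromosome 2, 152105516 to 152111376) had 32.7, 26.6, 26.3 and 6.96 CPM in replicates 1 to 4 of WT and 24.2, 23.8, 28.3 and 34.4 CPM in the libraries labelled KO. Replicate 4 of WT, the library with the highest Gclm and Nqo1, was below every other library. On the log2 scale it lay 1.52 below its group mean (-1.52), and 0.745% of all genes tested lay at least as far from theirs in that library. The log2 fold change was 0.26 (95% interval -0.57 to 1.09, adjusted p = 0.63), and without that library it was -0.06 (adjusted p = 0.82).

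**Figure D2:**
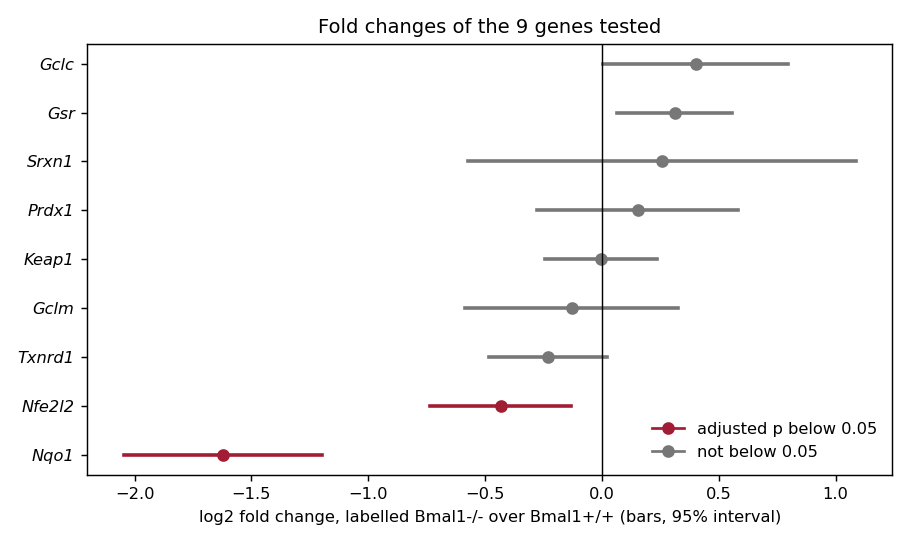
Log2 fold change (x axis, libraries labelled KO over WT) of the 9 genes tested, with 95% intervals from edgeR's quasi-likelihood test. The intervals of Nqo1 (-2.05 to -1.20) and Nfe2l2 (-0.74 to -0.13) lie below 0 with an adjusted p below 0.05, whereas those of Gsr and Gclc lie above 0 and do not pass the adjustment.

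Levels of different genes were compared per length with the authors' FPKM. Prdx1 was the highest in both labels, with 174 ± 45.6 FPKM (SD, n = 4) in WT libraries and 197 ± 22.2 FPKM (SD, n = 4) in the libraries labelled KO, followed by Gclc with 55.2 ± 12.1 and 74.3 ± 11.9 FPKM. Neither overlapped its neighbours in either label. In WT libraries Gclm, Gsr and Nfe2l2 came next, with 21.7, 19.7 and 19.5 FPKM and overlapping ranges. Then followed Txnrd1 with 14.09 FPKM, apart from its neighbours, and Nqo1, Srxn1 and Keap1 with 8.93, 6.34 and 5.10 FPKM, each overlapping the next. The order in the libraries labelled KO was the same except for exchanges of Gsr with Gclm and the place of Nqo1. Nqo1 was 7th in WT libraries and 9th in the libraries labelled KO, where its 2.95 ± 0.753 FPKM (SD, n = 4) lay below the range of Keap1, the gene before it. Slc7a11 was last in both, with at most 0.0276 FPKM.

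**Figure D3:**
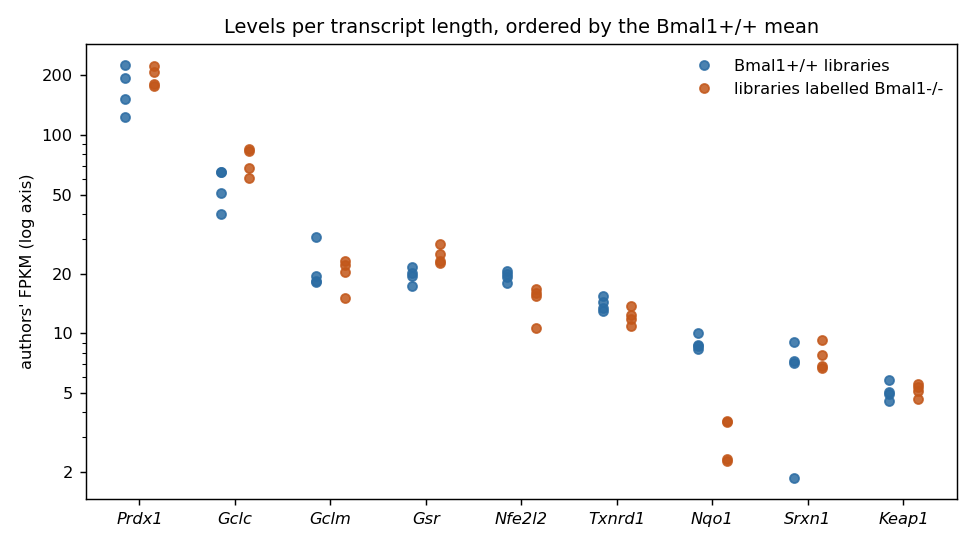
The authors' FPKM (y axis, log scale) of 9 of the genes in each library, ordered by their mean in WT libraries, with 1 point per library and Slc7a11 left out. The order is nearly shared by both labels, and Nqo1 moves from between Txnrd1 and Srxn1 to below Keap1.

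The 9 genes tested did not all vary together among libraries of the same label. After subtraction of the label means from log2 CPM, 22 of the 36 pairs among the 9 genes had a positive Pearson r over the 8 libraries and 14 a negative one. Each negative pair held Nfe2l2, Keap1 or Srxn1, except Nqo1 with Gsr (-0.06). Apart from that pair, Nqo1, Gclc, Gclm, Txnrd1, Prdx1 and Gsr had only positive values among themselves. The share of positive pairs over all genes was not computed. These libraries share their normalization, and the values are descriptions. The closest pair was Gclc and Prdx1 with an r of 0.94, and the most opposed was Gclm and Srxn1 with -0.69, where replicate 4 of WT was the extreme library of both. Nfe2l2 had an r of -0.53 with Nqo1 within labels and 0.65 over the 8 libraries without that subtraction. In replicate 4 of the KO label, which stood apart, Nfe2l2 was furthest below its label mean (-0.40) and Nqo1 furthest above (0.37). The r within labels without that library was not computed. Over the 8 libraries, the 3 genes most like Nfe2l2 among 13444 with a mean of at least 1 CPM were Pgrmc1, Ehhadh and Aldh6a1 (r of 0.993, 0.991 and 0.988), and those most like Nqo1 were Gm15163, Trim33 and Adamts1 (r of 0.994, 0.991 and 0.990).

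Among regulators around NRF2 that were called lower, Maff and Bach1 had larger fold changes than Nfe2l2. Bach2 (log2 fold change -1.33, adjusted p = 0.068) and Nfe2l1 (-0.50, adjusted p = 0.12) had larger ones as well but did not pass. Of 12 tested of a list of 14, 3 were lower and 1 was higher with adjusted p below 0.05, 33.3% in all and close to the 31.1% of all genes, with a median log2 fold change of -0.14. Maff, a small MAF partner, had 19.9, 25.7, 23.7 and 19.1 CPM in replicates 1 to 4 of WT and 6.43, 2.77, 2.42 and 2.85 CPM in the libraries labelled KO. Its groups did not overlap, and the log2 fold change was -2.60 with a standard error of 0.29 (adjusted p = 2.0e-04), whereas the other small MAF genes Mafg and Mafk had values of -0.05 and -0.04 that did not pass (adjusted p of 0.78 and 0.81). Bach1, a repressor that competes with NRF2 for the same elements, had 65.0 ± 9.50 CPM (SD, n = 4) in WT libraries against 34.0 ± 3.72 CPM (SD, n = 4) in libraries labelled KO, 1.91-fold lower (adjusted p = 6.9e-04). Cul3, the scaffold of the ligase that KEAP1 serves, was lower by 0.29 on the log2 scale (-0.29, adjusted p = 0.029), and Dpp3, which competes with NRF2 for KEAP1, was higher by 0.44 (adjusted p = 0.026). The calls of Maff and Bach1 held in all 16 alternative fits. Cul3 lost its call in 7 of them (adjusted p up to 0.086) and Dpp3 in 5 (adjusted p up to 0.074), for Dpp3 without replicate 1, 3 or 4 of WT or replicate 2 or 3 of the libraries labelled KO, and for Cul3 without any one replicate of WT or replicate 1 of the libraries labelled KO.

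Other genes known as NRF2 targets went both ways. Of 31 tested of a list of 33, 10 were lower and 7 were higher, 54.8% in all against 31.1% of all genes, with a median log2 fold change of -0.24. Me1, the malic enzyme that makes NADPH, was 7.01-fold lower, with 417 ± 165 CPM (SD, n = 4) in WT libraries against 59.5 ± 17.3 CPM (SD, n = 4) in libraries labelled KO (log2 fold change -2.81, adjusted p = 2.6e-04). The glutathione transferases, which conjugate electrophiles to glutathione, split by class. All 4 tested of the alpha class were lower, with log2 fold changes between -2.55 for Gsta2 and -1.01 for Gsta3, and Gsta1 at -2.50. Gsta1 had only 2, 13, 12 and 2 counts in replicates 1 to 4 of the libraries labelled KO, partly under the floor of 3. Of 5 of the mu class 4 were higher, by up to 3.48-fold for Gstm2 and 4.57-fold for Gstm3, and Gstm4 did not pass (0.20, adjusted p = 0.17). Gstp1, of the pi class, had 10.3, 10.9, 11.2 and 8.07 CPM in replicates 1 to 4 of WT and 94.9, 90.7, 90.6 and 39.1 CPM in the libraries labelled KO, with a log2 fold change of 2.96 (adjusted p = 5.9e-05). Reads of closely similar members of these families may be assigned to one another, which leaves single values uncertain. Of the 10 lower genes of the list 4 were of the alpha class, and of the 7 higher 4 were of the mu and 1 of the pi class. The 54.8% called thus rests in large part on the transferases. Hmox1, heme oxygenase, had 43.2 CPM in replicate 4 of the libraries labelled KO and from 14.4 to 15.0 CPM in the other 3, against 21.9 to 29.0 CPM in WT libraries. Its log2 fold change was -0.22 (adjusted p = 0.66), and without that replicate -0.79 (adjusted p = 0.0029).

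Among 33 tested of a list of 35 enzymes of glutathione, thioredoxin and peroxide handling, 7 were lower and 3 were higher, 30.3% in all, close to the 31.1% of all genes, with a median log2 fold change of -0.12. Txnip, which binds and inhibits thioredoxin, was 3.40-fold lower (adjusted p = 2.7e-04). Gpx7, a peroxidase of the endoplasmic reticulum, fell by 1.78 on the log2 scale (adjusted p = 0.012) at a low level of 1.72 CPM in WT libraries. Sod3, the extracellular superoxide dismutase, was 1.83-fold lower (adjusted p = 0.0030). The 3 higher genes were Prdx5, a mitochondrial and peroxisomal peroxiredoxin, which was 1.77-fold higher (adjusted p = 0.0027), the methionine sulfoxide reductase Msrb2 (log2 fold change 0.49, adjusted p = 0.028) and glutathione synthetase Gss (0.37, adjusted p = 0.022). Msrb2 lost its call in 6 of the 16 alternative fits (adjusted p up to 0.082) and Gss in 5 (adjusted p up to 0.068). Prdx5 kept its call in all 16. Without replicate 2 of either label, only 1 gene of this list was higher.

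Of 11 tested of 12 genes of cysteine supply and use, 3 were lower and 3 were higher, 54.5% in all. Of all genes 31.1% were called, and the median log2 fold change of the list was 0.03. Mat1a and Ahcy, which pass methionine to homocysteine in the liver, were 1.72-fold and 1.51-fold lower (adjusted p of 0.0064 and 0.012). Cbs, which takes homocysteine towards cysteine, was 2.20-fold higher (adjusted p = 1.0e-04), whereas Cth, the next enzyme, did not pass (log2 fold change -0.14, adjusted p = 0.60). Cdo1 and Csad, which turn cysteine to taurine, were 1.56-fold and 2.29-fold higher (adjusted p of 0.0063 and 0.0072).

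**Figure D4:**
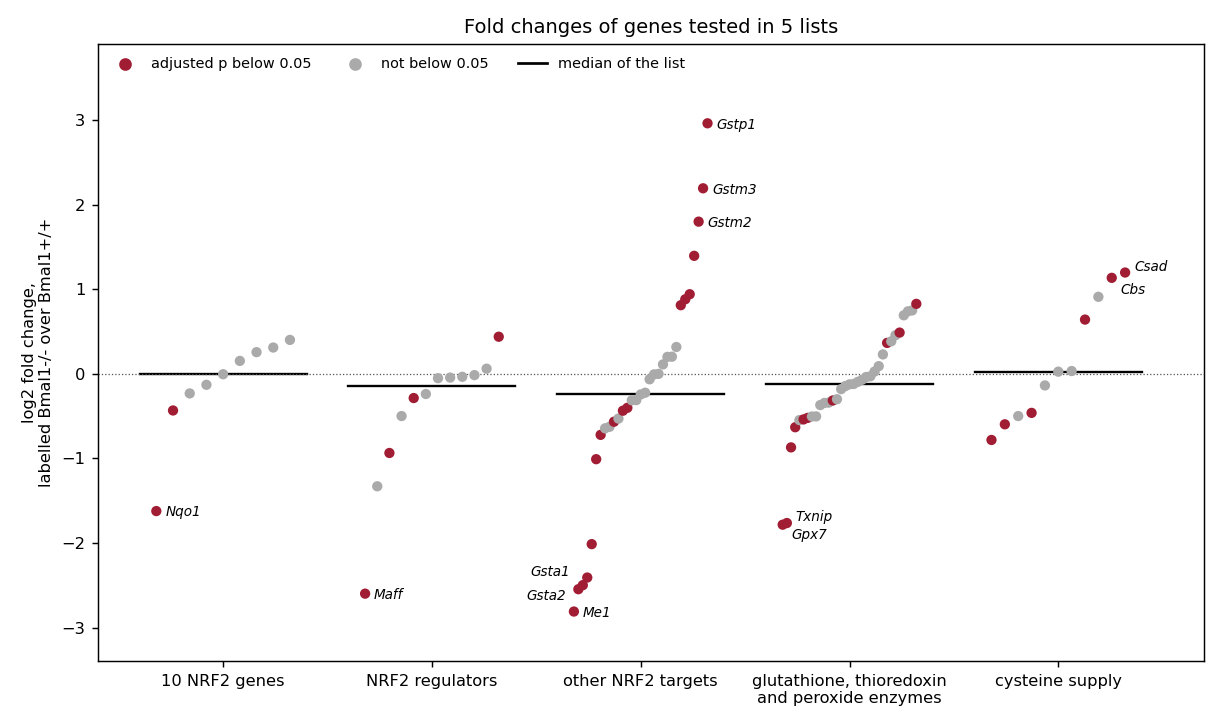
Log2 fold change (y axis, libraries labelled KO over WT) of every gene tested in the 10 NRF2 genes and 4 further lists, with each list sorted from low to high along the x axis and its median as a bar. Apart from Nqo1, the 9 tested of the 10 NRF2 genes lie from -0.43 to 0.40, and the other NRF2 targets reach from -2.81 for Me1 to 2.96 for Gstp1.

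Markers of several other cell types differed between the labels, and their counts stand against 16.2% lower and 14.9% higher over all genes. Of 8 macrophage genes tested 5 were lower and 0 higher, their summed level was from 437 to 543 CPM in WT libraries and from 206 to 401 CPM in the libraries labelled KO, and Adgre1 had 38.4 ± 3.49 and 15.5 ± 5.20 CPM (SD, n = 4 each). Of 7 endothelial genes tested 6 were lower, with sums of 302 to 344 CPM and 206 to 277 CPM, and of 9 fibroblast genes tested 5 were lower, with sums of 139 to 221 CPM and 105 to 110 CPM. Of 5 lymphocyte genes tested 1 was lower, Ptprc, which macrophages express as well. The sums of the list were 23.8 to 28.2 CPM and 8.18 to 17.2 CPM, and 4.06 to 4.80 against 3.39 to 5.06 CPM without Ptprc. Of 5 epithelial genes tested 2 were lower and 1 was higher, with sums of 193 to 238 CPM and 235 to 375 CPM. Of 13 hepatocyte genes 1, Alb, was lower and 4 were higher. The part of cell type in the NRF2 genes was not tested.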

How the data were processed

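RNA sequencing of 8 libraries was analysed. Per the paper's methods, HISAT2 aligned read pairs to GRCm38 and StringTie counted fragments per gene. The authors deposited these counts without normalization, and FPKM values beside them. The submitters' processing notes name TopHat2 2.0.6 and CASAVA 1.8 instead. The deposited FPKM equalled count over library total and 1 length per gene within 1% for 100.0% of 12597 genes. Strand use is not stated. Symbols and positions are from GENCODE M21 (GRCm38), and 99.4% of 55487 identifiers matched. CPM and tests came from the counts by way of edgeR 4.0.16 under R 4.3.3, with filterByExpr, TMM factors and the quasi-likelihood test, and with Benjamini-Hochberg adjustment over 14353 genes (common dispersion 0.0506). Standard errors are the absolute log2 fold change over the root of F. The labels do not say that samples are separate animals, so p-values measure the spread between these samples, which may be technical. Library totals were 14054825 to 18449143, and counts of 3 were the floor. No pair of libraries of a label was a duplicate (chi-square per degree of freedom from 18.0 to 150).

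The 10 genes and all lists were chosen with earlier results of these data known. Named genes were the 10 genes, in each of 4 further lists the 3 lowest and 3 highest log2 fold changes with adjusted p below 0.05 and a mean of at least 1 CPM, and the 3 genes most correlated with Nfe2l2 and Nqo1. Bach2, Nfe2l1, Mafg, Mafk, Gsta3, Gstm4, Hmox1, Cth, Adgre1, Ptprc and Alb were named after their values were seen. Alternatives were DESeq2 1.42.0, limma 3.58.1 (voom, and on log2 of FPKM plus 0.1), upper-quartile factors, library size only, no filter, at least 10 counts in every library, the replicate number as a block, and leaving out each library. Figures were drawn with matplotlib 3.10.9.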

Additional observations from a re-analysis of the deposited data

Results flagged for a closer look

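Among the 10 genes and 22 further named genes, groups of 4 libraries were checked for a library far from the other 3 of its label by Dixon's ratio, which chance passes in about 5% of groups, and 7 of 64 groups passed. Replicate 4 of WT was high for Nqo1, with 16.0 CPM against 13.3 to 13.5 CPM in the other 3, and for Gclm, with 259 CPM against 150 to 161 CPM. Slc7a11 had 0.142 CPM in replicate 3 of the libraries labelled KO and 0 in the other 3, which is 2 counts and under the floor. Maff had 6.43 CPM in replicate 1 of the libraries labelled KO against 2.42 to 2.85 CPM in the others of its label. Replicate 4 of the libraries labelled KO was low for Gstp1, with 39.1 CPM against 90.6 to 94.9 CPM, and high for Mat1a, with 4441 CPM against 3177 to 3211 CPM. Gsta1 had 3.46 CPM in replicate 2 of WT against 2.56 to 2.71 CPM in the other 3.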

How the results depend on the processing

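Nqo1 kept its direction and its call in all 16 alternative fits, and Gclc and Prdx1 kept their direction without a call. Nfe2l2 kept its direction in all 16. The count of NRF2 genes lower was 1 with library size only, without a filter on low counts, with limma on log2 FPKM and with the replicate block, and ranged from 1 to 3 as single libraries were left out. The count higher was 1, Gsr, with library size only and with limma on log2 FPKM, and ranged from 0 to 1 as single libraries were left out. Keap1, with a log2 fold change near 0, changed sign with library size only (0.0194), without a filter (0.0015) and with limma on log2 FPKM (0.0219), and ranged from -0.0594 to 0.0554 as single libraries were left out, above 0 in 4 of the 8 cases. The same ranges were -0.214 to 0.0813 for Gclm and -0.0579 to 0.471 for Srxn1, and both changed sign without replicate 4 of WT. Without a filter, 28004 genes were tested and 3196 met the study's criterion, against 2026. As single libraries were left out, the number of NRF2 regulators higher ranged from 0 to 1, and that of enzymes of glutathione, thioredoxin and peroxide handling from 1 to 4. Samples with the same replicate number did not deviate together (r from -0.04 to 0.06, 0 of 4 above 0.1). With 4 pairs, this cannot tell whether they shared a batch. The fourth number of the KO label is that of its description, whereas its title reads KO6. With the replicate block, Nfe2l2 (adjusted p = 0.067) and, in the further lists, Cul3, Gss, Msrb2, Abcc2, Ftl1, Glrx3 and Prdx6 lost their calls, and 2064 genes were lower and 1809 higher, against 2322 and 2135. The cause of these shifts was not tested, and Slc7a11 was too low to compare at these depths.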
